A study of Mus musculus with 6 samples.

Results

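Expression of 9 fibroblast genes was examined in the hearts of mice given Ang II and of mice given Ang II and tectochrysin (Tec). The genes are the non-collagen genes that mark resting cardiac fibroblasts (Pdgfra, Tcf21, Dpt, Ddr2, Gsn and Pi16) and those that mark their activation (Fap, Meox1 and Cthrc1), found by gene name among the 30914 genes of the deposited table. All 9 were present. The 6 libraries came from male C57BL/6J mice of genotype WT that were 8 weeks old at the start and all received Ang II at 1 μg/kg/min by osmotic pump for 4 weeks. The 3 mice of the Ang II group received no Tec, while those of the Ang II + Tec group, also 3, were given 5 mg/kg Tec by daily intraperitoneal injection in the last 2 weeks. No mice without Ang II were sequenced in these libraries, so the levels have no healthy reference here. The tissue was whole heart, in which fewer fibroblasts and less RNA per fibroblast cannot be told apart.

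Fibroblasts build and maintain the collagen matrix of the heart. In the unstressed heart they are quiescent and carry PDGFRα, a receptor for platelet-derived growth factor, and TCF21, a transcription factor of the fibroblast lineage. Under pressure load, neurohormonal stimulation or injury they become activated, proliferate and secrete matrix, and a part of them turns into contractile myofibroblasts. MEOX1, a homeobox transcription factor, FAP, a serine protease of the cell surface, and CTHRC1, a secreted glycoprotein of matrix-producing fibroblasts, are widely used to recognise this activated state.

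Values are FPKM, the fragments of a gene per length of its transcript, scaled to the total of mapped fragments, and the comparison used limma on log2(FPKM + 1), a scale that understates the change of genes with low FPKM. The heart identity of the samples was evident from the cardiomyocyte myosin gene Myh6, at 678 to 1491 FPKM. The libraries of a group were not alike. Ang II replicates 1 and 2 stood apart from the other 4 libraries on principal component 1 of the expression of the 13089 tested genes, which held 68.7% of the variance and on which they lay at -31.2 and -46.05 against 2.39 to 28.6. Atrial transcripts were present at high level in Ang II replicates 1 and 2 and in Ang II + Tec replicate 2, with the atrial light chain gene Myl7 at 419, 332 and 1040 FPKM, and at 0 to 1.58 FPKM in the other 3. Over every gene tested, the median log2 fold change was -0.17 with Tec, and 0.01 after the libraries were rescaled by the median of ratios. A gene was called changed at an adjusted p-value under 0.05 (Benjamini-Hochberg over all tested genes), which 24 genes met, 0.183% of those tested (0.084% lower and 0.0993% higher with Tec).

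None of the 9 fibroblast genes was called changed (limma, lowest adjusted p-value 0.222), while 4 reached an unadjusted p-value under 0.05, namely Cthrc1, Meox1, Fap and Pi16, all lower with Tec. Of all tested genes 18.6% passed that level, 16.5% lower and 2.09% higher. A log2 fold change of -1 or lower was seen for 3 of the 9 genes (Cthrc1, Meox1 and Pi16) and for 1.47% of all tested genes. Cthrc1, counted in each of these numbers, passed the filter through the Ang II libraries alone, which favours a lower value with Tec. The mean was lower with Tec for 8 of the 9 genes and for 80% of the tested genes as a whole, whereas Gsn had a higher mean. The median log2 fold change was -1.65 over the 3 activation genes and -0.58 over the 6 resting genes. The groups did not overlap for 2 of the 9 genes, Cthrc1 and Fap, both lower with Tec, a share close to the 18.9% of all tested genes that were lower without overlap.

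Cthrc1 (ENSMUSG00000054196, chromosome 15 from 39076932 to 39087121) showed the widest range of the 9 genes as a fold, 437 between the highest and the lowest heart (coordinates are GRCm38 throughout, and values are given in the order of the replicates). Its FPKM was 26.4, 52.5 and 0.77 in Ang II hearts 1, 2 and 3 and 0.12, 0.39 and 0.2 in Ang II + Tec hearts. The transcript was thus abundant in a pair of hearts without Tec and near the bottom of the scale in the other 4, although the third Ang II heart still lay above each treated heart. The log2 fold change was -3.48 (standard error 1.12, 95% interval -6.11 to -0.85, limma adjusted p-value 0.224), and the ratio of the group means was 112. It was tested only because the 3 Ang II libraries reached 0.5 FPKM, which holds for 107 of the 13089 tested genes, so its non-overlap follows from the filter. Without Ang II replicate 3 the change was -4.96 (limma adjusted p-value 0.000172), and without Ang II replicate 2 it was -2.50 (limma adjusted p-value 0.535).

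Meox1 (ENSMUSG00000001493, chromosome 11 from 101877510 to 101894374) reached 22.3, 31.1 and 4.8 FPKM in Ang II hearts and 5.8, 4.07 and 3.09 in Ang II + Tec hearts. The pattern was that of Cthrc1 with a smaller range, since the same pair of Ang II hearts was high and the third lay between the first and the second treated heart. The log2 fold change was -1.65 (standard error 0.59, 95% interval -3.03 to -0.26, limma adjusted p-value 0.234). It became -2.39 without Ang II replicate 3 (limma adjusted p-value 0.00192) and -1.16 without Ang II replicate 2 (limma adjusted p-value 0.576).

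Fap (ENSMUSG00000000392, chromosome 2 from 62500943 to 62574075) was the lowest of the 9 genes in the Ang II group. Its FPKM was 1.69, 1.72 and 0.9 in Ang II hearts and 0.52, 0.77 and 0.74 in Ang II + Tec hearts, without overlap, the nearest hearts being at 0.9 and 0.77. The log2 fold change was -0.52 (standard error 0.16, 95% interval -0.91 to -0.14, limma adjusted p-value 0.222). With 3 mice against 3, the smallest p-value an exact permutation test can give is 0.1, which Fap reached (two-sided).

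**Figure D1:**
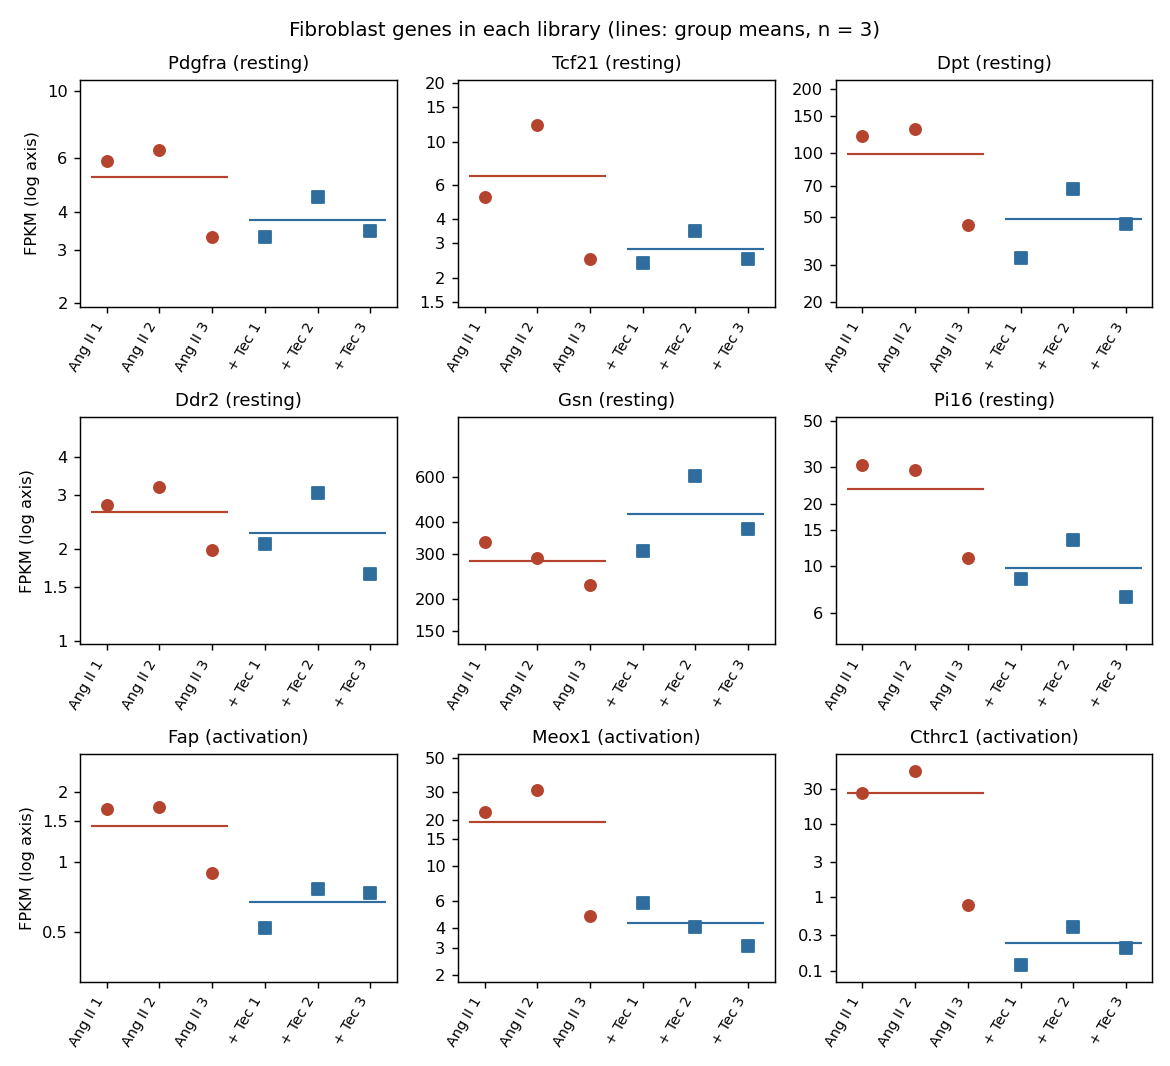
FPKM of the 9 fibroblast genes in each library on log axes. Circles are the 3 Ang II hearts, squares the 3 Ang II + Tec hearts and lines the group means. Ang II replicates 1 and 2 lie high for 8 of the genes, Ang II replicate 3 lies near the treated hearts, and Gsn alone peaks in Ang II + Tec replicate 2, at 606 FPKM.

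Among the resting genes, Pi16 had the lowest p-value. It encodes a peptidase inhibitor that marks fibroblasts of the adventitia (ENSMUSG00000024011, chromosome 17 from 29317680 to 29330593). Its FPKM was 30.8, 29.1 and 10.9 in Ang II hearts and 8.73, 13.5 and 7.17 in Ang II + Tec hearts, and Ang II replicate 3 was within the treated range. With Tec the log2 fold change was -1.10 (standard error 0.40, limma adjusted p-value 0.234) and the means were 23.6 ± 11.02 and 9.79 ± 3.28 FPKM (SD, n = 3 each).

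Dpt, which encodes the matrix protein dermatopontin (ENSMUSG00000026574, chromosome 1 from 164796644 to 164824266), was the second most abundant of the 9 genes per length of transcript. It had 119.9, 129.8 and 46.3 FPKM in Ang II hearts and 32.2, 68 and 46.7 in Ang II + Tec hearts. The third Ang II heart lay below 2 of the treated hearts, and the log2 fold change was -0.92 (standard error 0.43, limma adjusted p-value 0.288). Tcf21 (ENSMUSG00000045680, chromosome 10 from 22817281 to 22820174) had 5.19, 12.2 and 2.49 FPKM in Ang II hearts and 2.39, 3.49 and 2.49 in Ang II + Tec hearts. Ang II replicate 2 alone set much of its group mean. Its log2 fold change was -0.81 (standard error 0.44, limma adjusted p-value 0.329) and became -0.31 without that heart.

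The receptor genes Pdgfra and Ddr2 differed least. Pdgfra (ENSMUSG00000029231, chromosome 5 from 75152292 to 75198215) had 5.9, 6.41 and 3.29 FPKM in Ang II hearts and 3.31, 4.46 and 3.46 in Ang II + Tec hearts. Ang II replicate 3 was the lowest of the 6 hearts, and the log2 fold change was -0.35 (standard error 0.22, 95% interval -0.88 to 0.17, limma adjusted p-value 0.384). Ddr2, the gene of a receptor tyrosine kinase that binds fibrillar collagen (ENSMUSG00000026674, chromosome 1 from 169972307 to 170110729), had 2.79, 3.2 and 1.98 FPKM in Ang II hearts and 2.08, 3.05 and 1.65 in Ang II + Tec hearts. Its groups overlapped almost fully, with a log2 fold change of -0.17 (standard error 0.20, 95% interval -0.64 to 0.29, limma adjusted p-value 0.605), and the sign turned to 0.019 under quantile normalization. An antisense gene, 3110045C21Rik, overlaps Ddr2 at a mean of 0.483 FPKM in the Ang II group, and whether fragments were counted by strand is not given in the sources used here.

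Gsn was the exception among the 9 genes. It encodes gelsolin, which severs and caps actin filaments and is made by many cell types besides fibroblasts, and it lies on chromosome 2 from 35256380 to 35307892 (ENSMUSG00000026879). Its FPKM was 333, 289 and 226 in Ang II hearts and 307, 606 and 375 in Ang II + Tec hearts. The highest value was that of Ang II + Tec replicate 2, and Ang II + Tec replicate 1 lay within the Ang II range. The log2 fold change was 0.56 (standard error 0.27, 95% interval -0.07 to 1.18, limma adjusted p-value 0.296), against 0.80 once scaled to the median of ratios. Without Ang II + Tec replicate 2 the value was 0.28. That heart also had the highest summed FPKM of the marker lists for atrial myocardium (1688), epicardium (18.9) and adipocytes (142), whose part in the Gsn value was not tested.

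**Figure D2:**
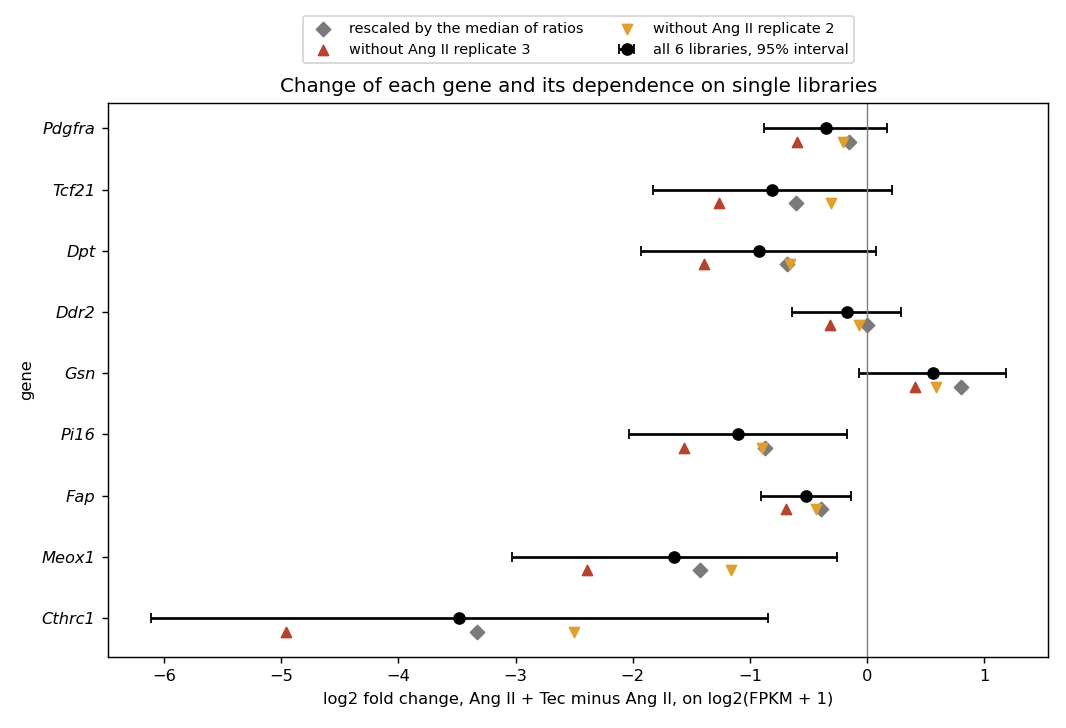
Log2 fold change of each gene, Ang II + Tec minus Ang II, on log2(FPKM + 1). Circles with bars are the estimates from 6 libraries with their 95% intervals, diamonds the values scaled to the median of ratios, and triangles the values without Ang II replicate 3 (up) or 2 (down). Leaving out Ang II replicate 3 moves 8 of the genes away from 0, and Gsn is the gene to the right of 0, at 0.56.

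All 9 genes were lower in Ang II replicate 3 than in Ang II replicates 1 and 2, and for 5 of them that heart was inside the treated range. Without it, 7 of the 9 genes were called lower with Tec (limma adjusted p-values 0.000172 to 0.0222), and Ddr2 and Gsn were not. In the same fit 28.8% of all tested genes were called, 26.2% lower and 2.61% higher, so many genes besides the fibroblast genes followed this pair of hearts. With array weights, whose estimate did not converge, 7 of the 9 genes were called lower, as were 25% of all tested genes (27.1% in either direction, 2.06% higher). Without Ang II replicate 1 or 2 the number called was 0, with 0 and 2 at an unadjusted p-value under 0.05, a level that 7.4% and 8.96% of all tested genes passed in these fits.

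The activation genes were then set against the resting genes inside each library. The mean of log2(FPKM + 1) over the 3 activation genes minus that over the 6 resting genes was -1.02, -0.74 and -2.31 in Ang II hearts and -2.50, -3.09 and -2.72 in Ang II + Tec hearts. The group means were -1.36 ± 0.84 and -2.77 ± 0.30 (SD, n = 3 each). Each treated heart lay below each Ang II heart, but this separation rested on Cthrc1, whose own non-overlap follows from the filter. Without this gene, an alternative chosen after seeing the data, the difference of -1.42 became -0.62 and the groups overlapped, with -2.01 in Ang II replicate 3 and -1.998 in Ang II + Tec replicate 1. Ang II + Tec replicate 2 had a mean of 4.31 over the resting genes, next to the 4.61 and 4.80 of Ang II replicates 1 and 2, but a mean of 1.21 over the activation genes against 3.58 and 4.06. Its resting mean was raised by Gsn, and over the other 5 resting genes the means were 3.32 in this heart, 3.85 and 4.13 in Ang II replicates 1 and 2 and 2.92 in Ang II replicate 3.

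**Figure D3:**
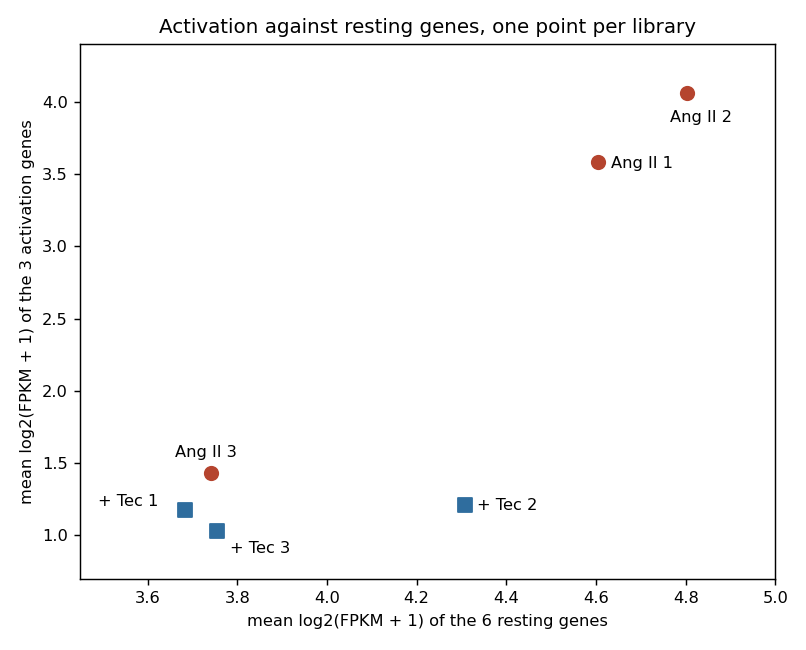
Mean log2(FPKM + 1) of the 3 activation genes (vertical axis) against that of the 6 resting genes (horizontal axis), with 1 point for each heart, circles for Ang II and squares for Ang II + Tec. Ang II replicates 1 and 2 sit at the upper right, and Ang II + Tec replicate 2 sits at 4.31 on the resting axis with 1.21 on the activation axis, where the resting mean includes Gsn.

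Ratios to Pdgfra, which compare genes per length within 1 library, did not follow the classes, since the resting gene Pi16 separated the groups and the activation gene Meox1 did not. Fap per Pdgfra was 0.286, 0.268 and 0.274 in Ang II hearts and 0.157, 0.173 and 0.214 in Ang II + Tec hearts, so that Ang II replicate 3 sat with its own group. Cthrc1 per Pdgfra was 4.47, 8.19 and 0.234 in Ang II hearts and 0.0363, 0.0874 and 0.0578 in Ang II + Tec hearts. The FPKM of Cthrc1 had passed the filter through the Ang II libraries alone. Pi16 per Pdgfra was 5.22, 4.54 and 3.32 against 2.64, 3.02 and 2.07, also without overlap. Gsn per Pdgfra was 56.4, 45.1 and 68.7 against 92.9, 135.8 and 108, each treated heart lying above each Ang II heart. Meox1, Tcf21, Dpt and Ddr2 per Pdgfra overlapped between the groups. The share of all tested genes that separate as a ratio to Pdgfra was not computed. As plain FPKM, 21.8% of all tested genes did not overlap between the groups, in either direction. Meox1 per Pdgfra was 3.77, 4.85 and 1.46 in Ang II hearts and 1.75, 0.913 and 0.893 in Ang II + Tec hearts.

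In the order of levels per length, Gsn was first in both groups, at 283 ± 53.8 and 429 ± 156 FPKM (SD, n = 3 each), and Dpt second, at 98.7 ± 45.6 and 49.0 ± 18.01 FPKM (SD, n = 3 each). Cthrc1 moved from the third place in the Ang II group, at 26.6 FPKM, to the last in the Ang II + Tec group, at 0.237 ± 0.139 FPKM (SD over 3 hearts). The SD in the Ang II group was 25.9 FPKM. In the Ang II group each neighbouring pair from Dpt through Cthrc1, Pi16, Meox1 and Tcf21 to Pdgfra overlapped in range, and the other neighbours (Gsn with Dpt, Pdgfra with Ddr2, Ddr2 with Fap) did not. In the Ang II + Tec group the neighbours Meox1, Pdgfra, Tcf21 and Ddr2 overlapped, and the remaining neighbours did not.

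The 5 resting genes other than Gsn varied together over the 6 libraries, with Pearson correlations of log2(FPKM + 1) from 0.77 to 0.97 over 10 pairs. The 3 activation genes correlated with each other at 0.91 to 0.98, and the 5 resting genes with the 3 activation genes at 0.63 to 0.95, so the correlations did not separate the classes. Gsn correlated with the other 8 genes at -0.30 to 0.34. These are descriptions over 6 points that share depth, atrial content and the split of the Ang II group, and 1389 of 11048 genes with a mean of at least 1 FPKM correlated with Cthrc1 at 0.95 or more. The genes most like each of the 9 were Cyb5r4 and Bst2 for Cthrc1, Ednrb and Emp1 for Meox1, Vopp1 and Fads1 for Fap, Fzr1 for Pi16, Meis3 and C1qtnf1 for Dpt, Cyb5a and Tmem158 for Tcf21, Lypla1 and Calr for Pdgfra, and Rcbtb1 and Denn2b for Ddr2, with correlations of 0.995 to 0.999. Gsn had fewer close neighbours, 11 genes at 0.95 or more, led by Ndnf (0.98) and Srp68 (0.97). Ndnf was at 0.72, 0.67 and 0.21 FPKM in Ang II hearts and 0.94, 3.35 and 1.48 in Ang II + Tec hearts.

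The proximal promoters of 3 of the genes that varied together, Pdgfra, Tcf21 and Dpt, are shown beside that of Gsn, which did not follow them. RefSeq promoter sequences (GRCm38.p6) were matched for 6 of the 9 genes, the entries of Fap, Meox1 and Cthrc1 being missing. Those of Pi16 and Ddr2 lie inside the annotated gene and were not used here. The stretches run 5′ to 3′ on the strand of the gene, from 250 bases before the RefSeq start site up to the first annotated exon. Searched on both strands were the E-box CAGCTG, which TCF21 binds, the SMAD site CAGAC, the AP-1 site TGANTCA and the TEAD site GGAATG, and matches are in capitals.
Pdgfra, chr5:75152001-75152250, plus strand: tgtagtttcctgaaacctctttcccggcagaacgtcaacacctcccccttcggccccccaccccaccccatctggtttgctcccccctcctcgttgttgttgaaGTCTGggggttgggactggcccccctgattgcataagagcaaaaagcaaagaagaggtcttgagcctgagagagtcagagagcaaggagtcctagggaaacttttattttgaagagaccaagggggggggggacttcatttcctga
Tcf21, chr10:22820175-22820393, minus strand: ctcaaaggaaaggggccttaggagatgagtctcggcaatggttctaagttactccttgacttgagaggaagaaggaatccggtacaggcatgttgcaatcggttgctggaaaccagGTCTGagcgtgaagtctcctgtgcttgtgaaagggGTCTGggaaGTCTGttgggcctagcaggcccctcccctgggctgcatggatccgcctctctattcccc
Dpt, chr1:164796413-164796643, plus strand: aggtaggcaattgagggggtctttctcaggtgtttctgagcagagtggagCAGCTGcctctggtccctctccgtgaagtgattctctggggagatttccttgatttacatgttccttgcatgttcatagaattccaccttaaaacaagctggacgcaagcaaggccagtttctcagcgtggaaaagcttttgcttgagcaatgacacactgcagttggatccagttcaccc
Gsn, chr2:35256109-35256358, plus strand: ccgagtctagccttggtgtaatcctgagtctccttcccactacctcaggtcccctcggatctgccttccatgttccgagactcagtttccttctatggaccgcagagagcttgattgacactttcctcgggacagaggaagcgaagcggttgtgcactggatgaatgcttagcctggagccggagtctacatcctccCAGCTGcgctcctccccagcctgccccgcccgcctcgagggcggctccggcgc
The E-box was found in Dpt (position -200, counted from the start site) and in Gsn (position -53), where 11.9% and 13% of all promoter windows of these lengths hold it. The SMAD site was found in Pdgfra (position -146, held by 42.2% of windows of this length) and in Tcf21 (positions -134, -99 and -90, with 38.4% of windows holding at least 1). The AP-1 and TEAD sites, held by 6.75% and 12.6% of windows of 250 bases, had no match in these 4 stretches. A match describes letters only. For Gsn the first of 3 RefSeq start sites is shown. The stretch at the second Gsn start site held a SMAD site (-246) and an E-box (-216). The stretch at the third held a SMAD site (-163), so the SMAD site was not absent from Gsn.

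Other fibroblast genes were taken from 2 lists, chosen with earlier results of these data known, so their counts are descriptions. Of 22 further resting or general fibroblast genes, all tested, 17 had a lower and 5 a higher mean with Tec, and the median log2 fold change was -0.45 against -0.17 for all tested genes. None was called changed (limma), and 6 lower and 2 higher genes had an unadjusted p-value under 0.05. Of all tested genes 16.5% were lower and 2.09% higher at that level, and 80% had a lower mean. The lowest were Mfap5, which encodes a microfibril protein (-1.73, standard error 0.61, limma adjusted p-value 0.231), and Lum, the gene of the proteoglycan lumican (-1.65, standard error 0.59, limma adjusted p-value 0.234). The 5 with a higher mean were Scara5, Smoc2, Entpd2, Dpep1 and Tnxb. Scara5, the gene of a ferritin receptor found on fibroblasts, had 2.03, 2.27 and 4.41 FPKM in Ang II hearts and 4.58, 5.57 and 5.16 in Ang II + Tec hearts, the reverse of Cthrc1 with the pair of Ang II hearts low (log2 fold change 0.69, standard error 0.22, limma adjusted p-value 0.226). Smoc2, which encodes a secreted calcium-binding matrix protein, had 9.05, 9.03 and 8.91 FPKM against 13.1, 10.1 and 10.7 (log2 fold change 0.29, standard error 0.12, limma adjusted p-value 0.268), so these Ang II hearts did not split. Scara5 and Smoc2 did not overlap between the groups, which is the case in the higher direction for 2.9% of all tested genes. Clec3b, Cd34, Ly6a, Thy1 and Lamb1 were lower without overlap, 5 of 22 genes and close to the 18.9% of all tested genes.

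Of 22 further activation genes, from a list also chosen with earlier results of these data known, 18 were tested. Each of the 18 had a lower mean with Tec, with a median log2 fold change of -1.88. None was called changed (limma), and 9 had an unadjusted p-value under 0.05, all lower with Tec. Of all tested genes 16.5% were lower at that level, and 80% had a lower mean. Postn, which encodes the matricellular protein periostin and is the classical marker of activated cardiac fibroblasts, had 129.7, 178 and 10.5 FPKM in Ang II hearts and 6.13, 11.3 and 4.84 in Ang II + Tec hearts. The log2 fold change was -3.02 (standard error 0.96, limma adjusted p-value 0.224). Thbs4, the gene of thrombospondin 4, had 82.6, 59.7 and 3.92 FPKM against 2.05, 4.08 and 2.24 (log2 fold change -2.99, standard error 0.98, limma adjusted p-value 0.228). In both the third Ang II heart lay within the treated range, and the groups did not overlap for 2 of the 18 genes, Cilp and Ddah1, a smaller share than the 18.9% of all tested genes. The smallest changes were those of Cdh11 (-0.39, standard error 0.33) and of Acta2 (-0.50, standard error 0.52), the smooth muscle actin gene, which had 128 FPKM in Ang II + Tec replicate 2 and is also expressed by vascular muscle. All 18 genes were lower in Ang II replicate 3 than in Ang II replicates 1 and 2. Without that heart 16 of the 18 were called lower, as were 26.2% of all tested genes. The genes below the limit for testing were Tnc, Runx1, Inhba and Grem1, of which Tnc had 4.63, 6.29 and 0.23 FPKM in Ang II hearts and 0.05, 0.15 and 0.1 in Ang II + Tec hearts.

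**Figure D4:**
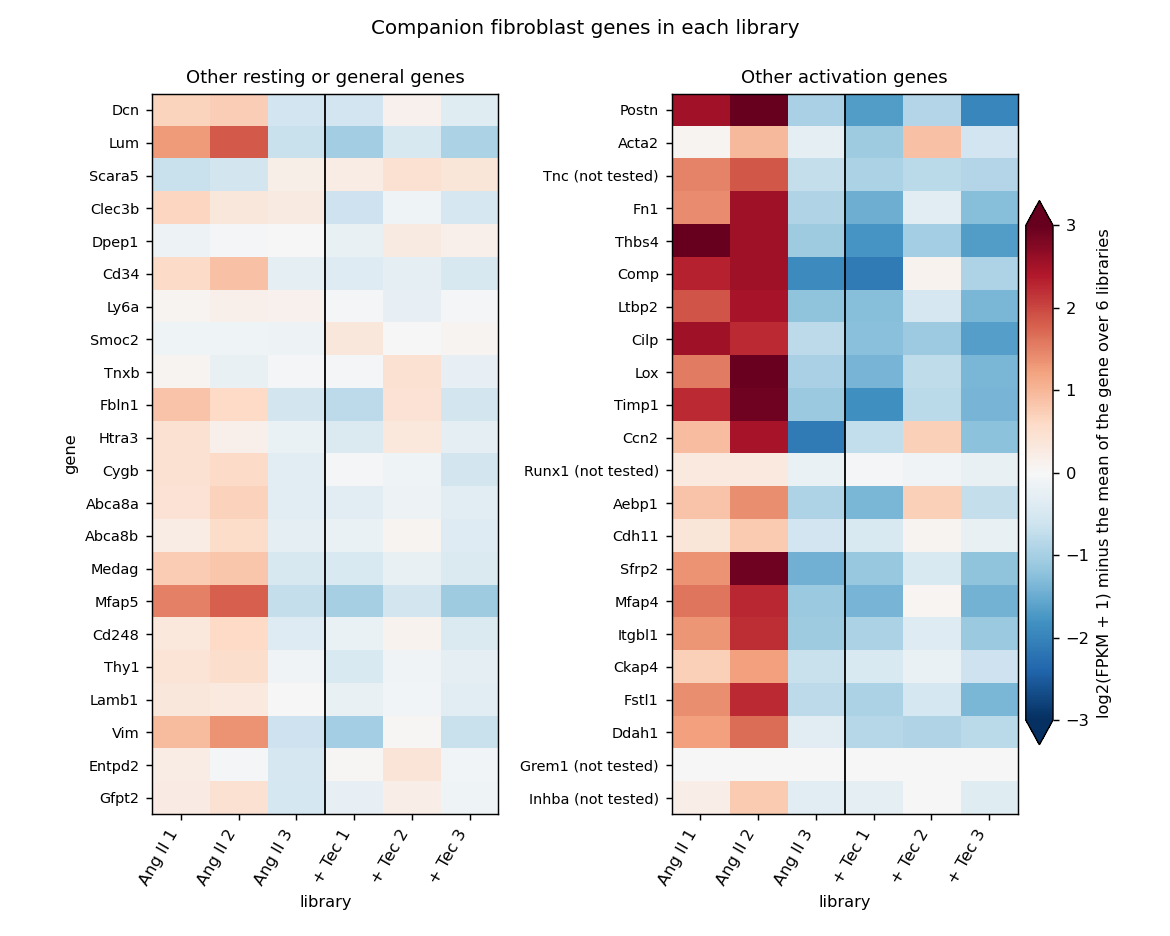
Log2(FPKM + 1) of each further fibroblast gene minus its mean over the 6 libraries, in colour (red higher, blue lower), with libraries in columns and genes in rows, and the groups parted by the black line. The activation genes are red in Ang II replicates 1 and 2 in nearly every row, whereas Scara5 is blue there, at 2.03 and 2.27 FPKM.

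Among markers of other cells, the summed FPKM of macrophages and leukocytes and of dividing cells was highest in Ang II replicates 1 and 2. The single macrophage marker Cd163 was an exception, with 3.12 FPKM in Ang II replicate 1 and its highest value, 4.72, in Ang II replicate 3. The endothelial sum was also highest in Ang II replicates 1 and 2, at 99.2 and 106 FPKM, but close to the 98.7 of Ang II replicate 3. The remaining lists did not have their highest sums in this pair. The cardiomyocyte sum was highest in Ang II replicate 1 and lowest in Ang II replicate 2. The atrial, epicardial and adipocyte sums peaked in Ang II + Tec replicate 2. The 7 macrophage and leukocyte markers summed to 68.0 to 121 FPKM in the Ang II group and 43.3 to 49.2 in the Ang II + Tec group. The 6 tested had lower means with Tec, 5 of them at an unadjusted p-value under 0.05 and none called (limma). Of all tested genes 80% had a lower mean and 16.5% were lower at that level. The 5 markers of dividing cells summed to 2.21 to 5.78 and 0.63 to 0.8 FPKM, and the 3 tested had passed the filter through the Ang II libraries alone. Both sums were highest in Ang II replicate 2, as were 7 of the 9 fibroblast genes, and their part in the fibroblast values was not tested. The 6 endothelial markers summed to 98.7 to 106 FPKM and 85.5 to 94.04 FPKM, also without overlap. Taken singly, 2 of the 6 (Kdr and Egfl7) were lower without overlap, while 5 had a lower mean with Tec and Cdh5 a higher one. Of all tested genes, 18.9% were lower without overlap and 80% had a lower mean. The 8 cardiomyocyte markers summed to 8457 to 10331 and 9314 to 10079 FPKM. The 7 smooth muscle and pericyte markers summed to 180 to 326 and 158 to 227 FPKM, the 6 epicardial markers to 0.61 to 13.02 and 1.53 to 18.9, and the 5 adipocyte markers to 1.44 to 51.5 and 0.28 to 142, with overlap in each. Listed at 0 in at least 1 library were Myl7, Sln and Bmp10 of the atrial, Krt19 and Upk1b of the epicardial, and Plin1 and Retn of the adipocyte markers.

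Atrial transcripts, which were high in Ang II replicates 1 and 2 and in Ang II + Tec replicate 2, divided the libraries into classes of 3. Within the class with these transcripts, the log2 difference of Ang II + Tec replicate 2 from the mean of Ang II replicates 1 and 2 was -4.78 for Cthrc1, -2.43 for Meox1, -1.10 for Pi16 and -0.61 for Fap. Within the class without them, the mean of Ang II + Tec replicates 1 and 3 differed from Ang II replicate 3 by -0.61 for Cthrc1, -0.14 for Meox1, -0.42 for Pi16 and -0.22 for Fap. The direction was the same in both classes for these 4 genes and for Dpt (-0.87 and -0.25), Tcf21 (-1.01 and -0.02) and Gsn (0.96 and 0.58), and it differed for Pdgfra (-0.39 and 0.03) and Ddr2 (0.02 and -0.06). The median over all tested genes was -0.13 and -0.08. For Cthrc1 the shared direction follows from the filter, and for Fap from the non-overlap of the groups. The share of all tested genes with the same direction in both classes was not computed. With the class as a covariate in the fit, the changes of Cthrc1, Meox1 and Gsn were -2.70, -1.28 and 0.77, and 0 of the 9 genes were called (limma, lowest adjusted p-value 0.146), with 5 at an unadjusted p-value under 0.05 (Cthrc1, Fap, Pi16 and Dpt lower and Gsn higher with Tec) against 21.5% of all tested genes.

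**Figure D5:**
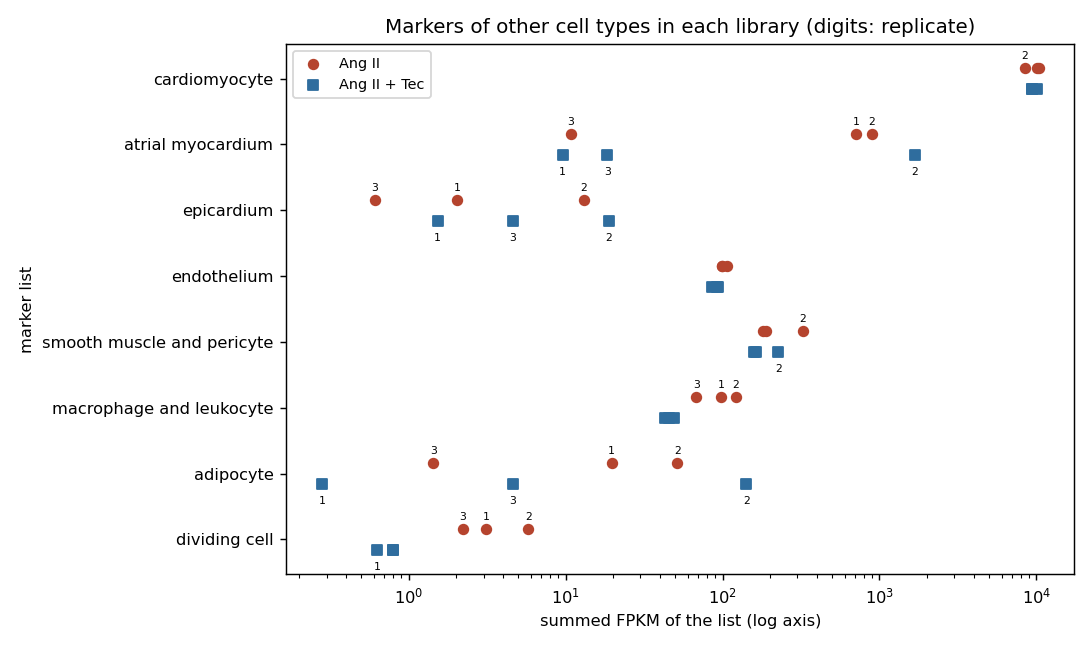
Summed FPKM of 8 lists of marker genes of other cells (log axis), with circles for the Ang II and squares for the Ang II + Tec hearts, and digits giving the replicate where points are apart. The atrial sums of Ang II + Tec replicate 2 (1688) and of Ang II replicates 1 and 2 are far above those of the other 3 hearts, and the macrophage and leukocyte sums of the groups do not overlap.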

How the data were processed

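RNA of 6 mouse hearts was sequenced by the authors after poly(A) selection. Reads were trimmed with Cutadapt and checked with FastQC. The submitters' processing notes name HISAT2 2.0, StringTie 1.3.0, Bowtie 0.12.2 and the build mm8, with no roles. The gene coordinates of the table are those of GRCm38, since 8 of the 9 genes have the start and end of GENCODE M21 (the end of Ddr2 differs). The authors deposited FPKM with 2 decimals. No counts were used, and low values did not fall on whole-fragment steps. The depth that the paper states gives no fragment count per library, so no counting error is given. The labels name 3 hearts per group, and p-values measure the spread between these.

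Genes with at least 0.5 FPKM in at least 3 libraries were fitted with limma 3.58.1 in R 4.3.3 on log2(FPKM + 1), with a variance trend and no covariate. The test was checked on simulated data. Tables and figures used pandas 2.3.3 and matplotlib 3.10.9 under Python 3.11.15. The genes and lists were chosen with earlier results of these data known. Named are the 9 genes, the 2 lowest and 2 highest of each further fibroblast list, the 2 genes most correlated with each of the 9 among genes with a mean of at least 1 FPKM, the first and zero-listed markers, and a few genes chosen after their values were seen (the 5 higher resting genes, those without overlap, those not tested and 3110045C21Rik). Alternatives covered the pseudocount, filter, scaling, replicate block, atrial class (Myl7 above 100 FPKM), library weights and each library left out. A few results that fall under these rules are not reported here.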

Additional observations from a re-analysis of the deposited data

How the results depend on the processing

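The number of the 9 genes called was 0 in 13 of 15 alternatives. It was 7 with array weights, whose estimate did not converge and which called 3542 genes in all, 14 further resting and 13 further activation genes. The fits without 1 library gave 0 to 7 of the 9 genes, 0 to 14 further resting genes, 0 to 16 further activation genes and 2 to 3776 genes in all, the highest each time without Ang II replicate 3. In all, 24 genes were called, 3 without a filter on low values (0 lower) and 13 with the atrial class as a covariate. Cthrc1 and Fap could not be tested with the filter at 1 FPKM. Of the 9 genes, Ddr2 alone turned its sign, to 0.019 under quantile normalization, and the other 8 kept theirs in 118 of 118 fits. The difference between activation and resting genes, -1.42, was -2.08 with a pseudocount of 0.1, -0.62 without Cthrc1, and between -1.89 and -1.11 without 1 library. Rescaling by the median of ratios moved the share of genes lower with Tec from 80% to 48.2%. With the replicate block 0 of the 9 genes were called and 7 had an unadjusted p-value under 0.05, against 25.3% of all tested genes, and 23 genes were called in all. The labels do not say whether the replicate numbers pair the hearts, and correlations cannot decide it. The deviations of same-numbered hearts correlated at -0.04, 0.43 and 0.38, where 0.43 and 0.38 were the highest values across the groups. Ang II replicate 1 correlated best with Ang II + Tec replicate 2 (0.21). The unknown fragment count per library limits what low values such as those of Cthrc1 with Tec can show.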
